A study of Mus musculus with 4 samples.

Results

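The Toll-like receptor genes *Tlr1*, *Tlr2*, *Tlr3*, *Tlr4*, *Tlr5*, *Tlr6*, *Tlr7*, *Tlr9* and *Tlr13* and the adaptor gene *Myd88* were followed by symbol in a culture of mouse cerebral cells. These 10 genes were taken from 22180 symbols that have a probe set of their own, and each was read by 1 probe set. The cells were taken from cerebra of C3H/He mice 3 days after birth and are labelled as primary astrocytes. They received both IFNγ (250 IU/mL) and benztropine (2.0 μM), IFNγ alone, benztropine alone, or neither agent as control, for 48 h, and all 4 conditions share the strain and the kind of culture. Each condition is 1 Affymetrix Mouse Gene 2.0 ST array with RNA mixed from 3 cultures. The replicate error within a difference between 2 arrays therefore cannot be estimated. The substrain of the C3H/He mice is not named. This bears on *Tlr4*, since the C3H/HeJ substrain is known for a missense mutation that makes its receptor unresponsive to lipopolysaccharide, and an expression array does not read that change.

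Toll-like receptors recognize conserved parts of microbes and of damaged cells. Tlr1, Tlr2, Tlr4, Tlr5 and Tlr6 act mainly at the cell surface on lipoproteins, lipopolysaccharide and flagellin, whereas Tlr3, Tlr7, Tlr9 and Tlr13 read nucleic acids in endosomes. All of them except Tlr3 signal through Myd88, which recruits Irak kinases and leads to NF-κB. In the brain these receptors are best known from microglia, the resident macrophages, and Tlr3 is also known from astrocytes.

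The values are RMA log2 signals, and background was set for each array at the 95th percentile of 1399 probe sets for chemosensory (olfactory and vomeronasal) receptors. It ranged over 6.64 to 6.69. In control all 10 genes exceeded it, as did 57.2% of 25341 probe sets with a gene symbol, and all 10 stayed above it on the other arrays. With the 99th percentile as background, 8 of the 10 were above it in control, against 37.9% of the named probe sets, and the exceptions were *Tlr4* and *Tlr5*. *Tlr5*, the flagellin receptor gene, lay only 0.41 above background in control and stayed below the 99th percentile on every array. *Tlr4* passed the 99th percentile on the 3 arrays with an agent. In control its signal was 7.60, just below the percentile of 7.62. That percentile differed between arrays, with 7.62 with both agents, 7.53 with IFNγ and 7.42 with benztropine. Probe sets differ in their affinity, which limits these background calls, since they set a gene beside other probe sets. Differences of signal were taken only between arrays for the same gene.

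The labelled cell type was checked on marker genes. In control 9 of 9 astrocyte genes and 13 of 13 microglial genes were above background, 3 of 5 perivascular macrophage genes, and 0 of 6 genes of T and NK cells and 0 of 5 of neutrophils. Of 8 measured genes of B cells and plasmacytoid dendritic cells, which are known for *Tlr7* and *Tlr9*, 3 were above background. These were *Siglech*, *Bst2* and *Tcf4*, which other cells also express, while *Ms4a1*, *Cd79a*, *Cd79b* and *Pax5*, the defining genes of B cells, were not. *Siglech* is also a gene of microglia, and *Bst2*, which interferons induce in many cells, differed by 1.34 and 1.63 with IFNγ in the 2 pairs of arrays. Of the genes of neurons, oligodendrocytes and fibroblasts, 4 of 5 each were above background, and 1 of 5 of endothelium. Markers of several cell types were thus present, and the cells that gave the receptor signals are not known. In such bulk RNA a change in the number of cells of a type and a change in RNA per cell cannot be told apart.

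The promoters of the members were searched for core motifs of interferon signaling, on both strands. RefSeq windows (GRCm38.p6) from 250 bases before to 50 bases after the annotated start were found for 8 of the 10 genes, in 10 windows, and *Tlr4* and *Tlr7* were not matched. The motifs were TTCNNNGAA, the core of the gamma-activated site, and GAAA repeated after 2 free bases, the core of the interferon-stimulated response element bound by Irf proteins. *Myd88* and *Tlr9* are shown because the adaptor holds both motifs and the gene with the highest response to IFNγ holds neither. The capitals mark the motifs.
Myd88, minus strand, chr9:119339969-119340268: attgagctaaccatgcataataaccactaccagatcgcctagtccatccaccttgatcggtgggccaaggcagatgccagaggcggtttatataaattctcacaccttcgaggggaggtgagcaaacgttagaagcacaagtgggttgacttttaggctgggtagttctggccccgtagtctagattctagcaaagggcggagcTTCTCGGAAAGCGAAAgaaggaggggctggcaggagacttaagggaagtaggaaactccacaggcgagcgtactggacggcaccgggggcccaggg
Tlr9, plus strand, chr9:106222348-106222647: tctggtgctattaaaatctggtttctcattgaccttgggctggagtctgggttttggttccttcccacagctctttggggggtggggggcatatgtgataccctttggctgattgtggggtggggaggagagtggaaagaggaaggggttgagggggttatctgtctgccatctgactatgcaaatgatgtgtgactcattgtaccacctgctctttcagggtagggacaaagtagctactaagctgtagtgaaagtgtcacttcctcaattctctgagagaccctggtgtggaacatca

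In *Myd88* the gamma-activated site core TTCTCGGAA began 46 bases before the annotated start and overlapped the response element core GAAAGCGAAA, which began 40 bases before it. *Tlr6* has 2 windows. The response element core was found at 2 overlapping places in 1 of them, and the gamma-activated site core at 2 places in the other, while the signal of *Tlr6* did not differ past 1.5-fold. *Tlr1* held the gamma-activated site core in 1 of its 2 windows. The windows of *Tlr2*, *Tlr3*, *Tlr5*, *Tlr9* and *Tlr13* held neither motif. Of all 32851 RefSeq windows 8.30% held the gamma-activated site core and 3.44% the response element core. A match is a description of the sequence and does not show binding, and the absence of a match says nothing of sites outside the window.

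**Figure D1:**
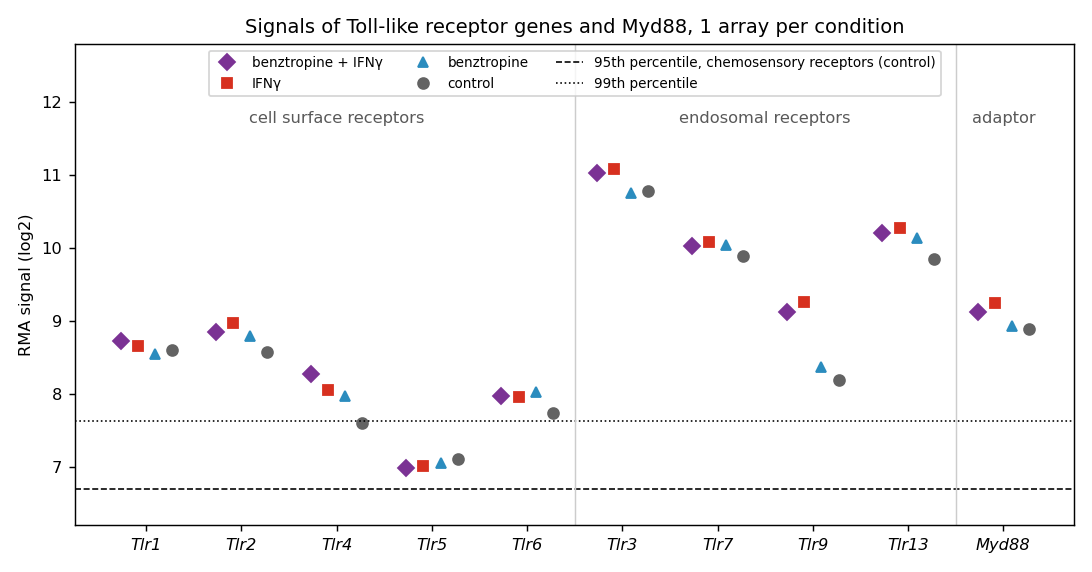
RMA log2 signal (vertical axis) of the 10 genes on each of the 4 arrays, with 1 point for each array and the background of the control array as horizontal lines. All points lie above the dashed 95th percentile. For *Tlr9* the 2 arrays with IFNγ (9.12 and 9.25) stand clear of the arrays with benztropine alone (8.36) and control (8.18).

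*Tlr9*, which encodes the endosomal receptor for unmethylated CpG DNA, was the gene with the highest response to IFNγ among the 10. Its log2 signal was 9.25 with IFNγ against 8.18 in control, a difference of 1.07. In the separate pair of arrays it was 9.12 with both agents against 8.36 with benztropine alone, a difference of 0.75 or 1.69-fold. Both arrays with IFNγ lay above both arrays without it, as in 17.2% of the named probe sets. *Tlr9* was the only one of the 10 genes to pass 1.5-fold (0.58 on the log2 scale), the threshold set by the study, and it did so in both pairs. Over all named probe sets 1.55% were higher past 1.5-fold with IFNγ than in control, 1.4% with both agents than with benztropine alone, and 1.02% in both pairs. Lower past 1.5-fold were 0 of the 10 genes in either pair, beside 0.28% and 0.347% of the named probe sets. A limma fit with additive terms for the 2 agents over the 4 arrays, which leaves 1 residual degree of freedom, estimated a log2 effect of IFNγ on *Tlr9* of 0.91 ± 0.10 (SE) with a Benjamini-Hochberg adjusted p of 0.0398. Of the named probe sets 0.983% were called higher and 0.0434% lower by this fit, and no other member was called. The call was lost, with an adjusted p of 0.328, when probe sets without a gene symbol entered the fit, and the adjusted p was between 0.00127 and 0.0412 in the 3 other settings of the fit.

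The endosomal receptor genes *Tlr3* and *Tlr13* were also higher with IFNγ in both pairs, within 1.5-fold. *Tlr3*, which encodes the receptor for double-stranded RNA and signals through the adaptor Ticam1, had 11.09 with IFNγ against 10.78 in control. It had 11.03 with both agents against 10.75 with benztropine alone. Its log2 differences of 0.30 and 0.27 were close to each other, and limma gave 0.29 ± 0.07 (SE, adjusted p = 0.242). *Tlr13*, which encodes a receptor for bacterial ribosomal RNA, had 10.27 with IFNγ against 9.85 in control and 10.20 with both agents against 10.13 with benztropine alone. Here the 2 pairs gave unlike differences, 0.42 and 0.07. *Tlr7*, which encodes a receptor for single-stranded RNA, had 10.08 with IFNγ against 9.89 in control but 10.03 with both agents against 10.05 with benztropine alone, so that its arrays with and without IFNγ overlapped.

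Among the surface receptors, *Tlr4* had the largest difference with IFNγ. *Tlr4* encodes the lipopolysaccharide receptor, and its signal was 8.04 with IFNγ against 7.60 in control and 8.27 with both agents against 7.97 with benztropine alone. These are log2 differences of 0.44 and 0.30, and limma gave 0.37 ± 0.08 (SE, adjusted p = 0.193). *Tlr2*, which encodes the lipoprotein receptor that pairs with Tlr1 or Tlr6, had 8.98 with IFNγ against 8.58 in control and 8.84 with both agents against 8.80 with benztropine alone. Its difference of 0.40 against control thus stood beside 0.05 in the presence of benztropine. *Tlr1*, whose product is a partner of Tlr2, had 8.65 with IFNγ against 8.60 in control and 8.72 with both agents against 8.55 with benztropine alone, or differences of 0.05 and 0.18. *Tlr6*, which encodes the other partner, had 7.95 with IFNγ against 7.74 in control and 7.97 with both agents against 8.03 with benztropine alone. Its differences of 0.22 and −0.06 had opposite signs, and its arrays with and without IFNγ overlapped. *Tlr5* had 7.003 with IFNγ against 7.10 in control and 6.98 with both agents against 7.06 with benztropine alone. It was the only member with both IFNγ arrays below both others, at −0.095 and −0.078, an order that 24.3% of the named probe sets had. None of these 5 genes passed 1.5-fold in any comparison.

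*Myd88*, the shared adaptor, had 9.25 with IFNγ against 8.89 in control and 9.12 with both agents against 8.94 with benztropine alone. The differences of 0.36 and 0.18 did not pass 1.5-fold, and limma gave 0.27 ± 0.08 (SE, adjusted p = 0.319). Both arrays with IFNγ were the highest for this gene, an order found in 17.2% of the named probe sets.

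Taking the 10 genes as a group, 9 were above 0 with IFNγ against control and 7 with both agents against benztropine alone, where 49.6% and 40.7% of the named probe sets were. Their median log2 difference was 0.33 and 0.12, beside −0.00 and −0.03 over the named probe sets. For 7 genes, *Tlr1*, *Tlr2*, *Tlr3*, *Tlr4*, *Tlr9*, *Tlr13* and *Myd88*, both arrays with IFNγ lay above both arrays without it, an order found in 17.2% of the named probe sets and in 18.8% of those above background on at least 1 array. The reverse order was found for 1 gene, beside 24.3% of the named probe sets. This order sets no minimum size, and the margin between the groups was small for most of these genes, as the plot of signals shows.

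**Figure D2:**
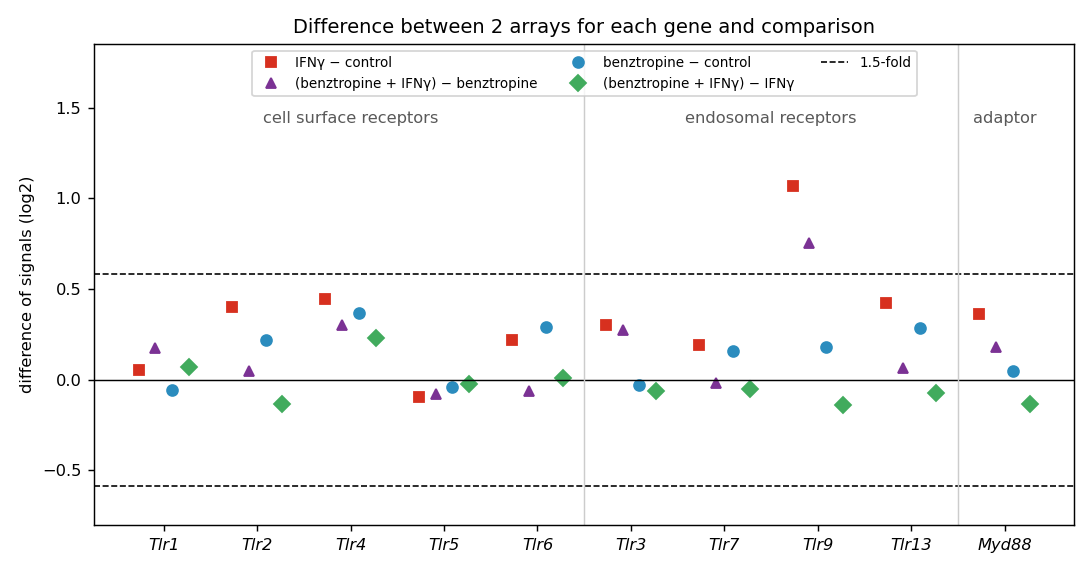
Log2 difference between 2 arrays (vertical axis) for each of the 10 genes in the 4 comparisons, with dashed lines at 1.5-fold. Only the 2 differences of *Tlr9* with IFNγ (1.07 and 0.75) lie outside the lines, and the differences with benztropine run from −0.14 to 0.37.

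Benztropine, a muscarinic acetylcholine receptor antagonist, moved none of the 10 genes past 1.5-fold. The share of named probe sets past this threshold was 0.284% upward and 0.182% downward with benztropine against control. It was 0.249% upward and 0.276% downward with both agents against IFNγ alone. *Tlr4* differed most, with 7.97 with benztropine against 7.60 in control and 8.27 with both agents against 8.04 with IFNγ alone. These are log2 differences of 0.37 and 0.23. The array with IFNγ alone lay above that with benztropine alone, so the arrays with and without benztropine overlapped for *Tlr4*. Both benztropine arrays were above both others for 1 of the 10 genes, *Tlr6*, by a margin of 0.01 between 7.97 with both agents and 7.95 with IFNγ alone. This order was found in 14.9% of the named probe sets, and 0 of the 10 had the reverse order, which 16.7% had. Limma estimated 0.30 ± 0.08 (SE) for benztropine on *Tlr4*, with an adjusted p of 0.676. It called 0 of the 25341 named probe sets for benztropine, while without adjustment a p under 0.05 was found for 930 (3.67%) upward and 927 (3.66%) downward. *Tlr6* and *Tlr13* were higher by 0.29 and 0.28 with benztropine than in control, but their differences were 0.01 and −0.07 with both agents against IFNγ alone.

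Against control, 7 of the 10 genes were higher with benztropine, with a median of 0.17, whereas against IFNγ alone 3 were higher with both agents, with a median of −0.06. In these comparisons 53.5% and 43.5% of all named probe sets were above 0. The difference between the effects of IFNγ with and without benztropine, which is also that between the effects of benztropine with and without IFNγ, was below 0 for 8 of the 10 genes, beside 58.3% of the named probe sets. Its median over the 10 genes was −0.20. The lowest values were those of *Tlr13* at −0.36, *Tlr2* at −0.35 and *Tlr9* at −0.32, and 0 of the 10 passed 1.5-fold, beside 1.91% of the named probe sets. All 4 arrays enter this value once each, and it has no test. The single control array enters this value and the comparisons of IFNγ and of benztropine with control, so these are not separate observations. The mean log2 signal of the 10 genes was 8.72 in control, 8.86 with benztropine, 9.06 with IFNγ and 9.03 with both agents.

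Markers of cell types differed between the arrays as well. With benztropine against control all 13 microglial genes were above 0, from 0.01 to 0.30 with a median of 0.12, while 1 of 9 astrocyte genes was. With both agents against IFNγ alone 6 of the 13 microglial genes were above 0, with a median of −0.02, and 0 of 9 astrocyte genes. With IFNγ against control 8 of 13 microglial genes were above 0, with a median of 0.11. *Ptprc*, the leukocyte phosphatase gene, and the complement gene *C1qb* were higher past 1.5-fold, and the microglial gene *Fcrls* fell by 0.66. The microglial median was −0.11 in the pair of both agents and benztropine alone, where *Fcrls* had −1.21. In that pair *Ptprc* and *C1qb* had 0.31 and 0.41, and 0 microglial genes were higher past 1.5-fold. The mean log2 signal of the microglial genes was 10.58 with both agents, 10.62 with IFNγ, 10.63 with benztropine and 10.49 in control, and that of the astrocyte genes 9.94, 10.09, 10.17 and 10.24 in the same order. The 5 perivascular macrophage genes, 3 of them above background in control, had medians of −0.43 with IFNγ against control and −0.68 with both agents against benztropine alone. The fibroblast gene *Dcn* was higher by 1.11 with benztropine than in control, while *Lum*, also past 1.5-fold, was below background on all 4 arrays. In this comparison 3 of the 5 fibroblast genes were above 0, with a median of 0.02. *Col1a1* and *Pdgfrb*, above background on all 4 arrays, had −0.05 and 0.02. The part of these cells in the values of the receptor genes was not tested.

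**Figure D3:**
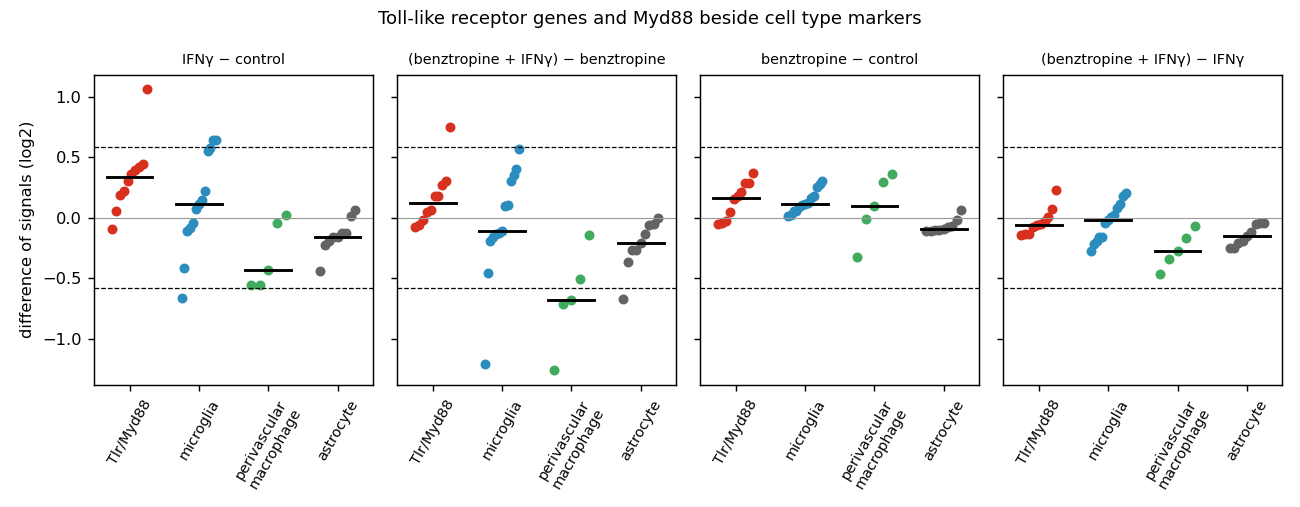
Log2 differences (vertical axis) of the receptor genes and *Myd88* beside those of microglial, perivascular macrophage and astrocyte markers in each comparison, with 1 point for each gene, a bar at the median and dashed lines at 1.5-fold. The microglial genes all lie above 0 with benztropine against control, and with IFNγ the medians of the receptor genes (0.33 and 0.12) lie above those of the microglial genes (0.11 and −0.11).

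Of 65 other genes of the pathway that were listed, 60 were measured and 53 were above background in control. With IFNγ against control 4 of them rose past 1.5-fold and 0 fell, and with both agents against benztropine alone 3 were past it upward and 0 downward. The 3 include *Tlr12*, which was below background on all 4 arrays and is given no fold. Of all named probe sets 1.55% and 1.4% were higher past 1.5-fold in these pairs, and 0.28% and 0.347% lower. In either comparison with benztropine 0 passed. Of the 60 genes 2, *Cd36* and *Slc15a3*, rose in both pairs, and both were also called by limma. Over the named probe sets 1.02% were higher in both pairs, and limma called 0.983% higher with IFNγ. *Cd36*, which encodes a scavenger receptor that assists Tlr2 and Tlr6, had 9.39 with IFNγ against 8.32 in control and 9.32 with both agents against 8.56 with benztropine alone. Its adjusted p was 0.0369. *Slc15a3*, which encodes a peptide and histidine transporter of endolysosomes, had 8.60 with IFNγ against 7.86 in control and 8.87 with both agents against 7.99 with benztropine alone, with an adjusted p of 0.0245.

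Both other rises above background passed 1.5-fold only in the pair of IFNγ and control. *Pik3ap1*, which encodes an adaptor that links the receptors to PI3 kinase, had a log2 difference of 0.71 with IFNγ against control and of 0.41 with both agents against benztropine alone. *Ikbke*, which encodes an IKK-related kinase, had 0.59 against control and likewise 0.41 in the other pair. *Unc93b1*, which encodes the chaperone that carries the nucleic acid receptors to endosomes, stayed just within the threshold at 0.58 and 0.47, and limma gave an adjusted p of 0.0818. It was named after its values were seen, as were the genes that follow in this paragraph. *Tlr8*, the neighbour of *Tlr7* on the X chromosome, had differences of 0.57 and 0.26 with IFNγ. The co-receptor genes of Tlr4 did not pass 1.5-fold, with 0.28 and 0.33 for *Ly96* and −0.08 and −0.22 for *Cd14*.

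With IFNγ against control the lists further down the pathway had lower medians than the 10 genes, whose median was 0.33. So had the co-receptor genes, at 0.19, and the genes of receptor trafficking and processing, at 0.16. With both agents against benztropine alone the median of the 10 genes was 0.12. In that pair the co-receptor genes (0.18) and the NF-κB genes had higher medians, and the trafficking genes had 0.01. The 16 measured genes of other adaptors and kinases had a median of 0.08 with IFNγ against control and 0.05 with both agents against benztropine alone. The 8 measured NF-κB genes had medians of 0.15 and 0.15, and 0 of them passed 1.5-fold in any comparison. The 8 negative regulators had medians of 0.12 and −0.03, and 0 of them passed either. Among the 6 receptor genes of the IL-1 family, most of whose products also use Myd88, 2 were above background in control. These were *Il1r1*, at −0.49 and −0.34, and *Il1rap*, at −0.15 and −0.24 on its probe set above background. The medians over all 6 were −0.18 and −0.12, and they include genes and probe sets below background. *Irak4*, *Traf3*, *Chuk*, *Il1rl1* and *Nfkb1* were not analysed here.

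**Figure D4:**
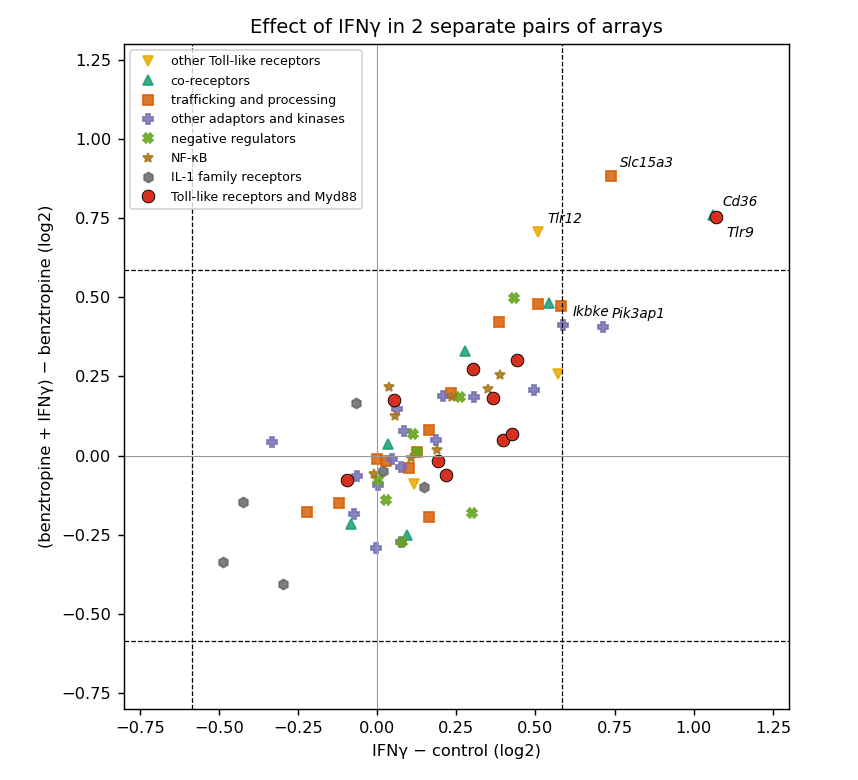
Log2 difference with IFNγ against control (horizontal axis) and with both agents against benztropine alone (vertical axis), with 1 point for each gene, colored by its place in the pathway, and dashed lines at 1.5-fold. *Tlr9*, *Cd36* and *Slc15a3* lie past 1.5-fold in both pairs, and no gene of the pathway lies past it downward.

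Genes known to respond to IFNγ gave the scale of the response in the same arrays. *Iigp1*, which encodes an immunity-related GTPase, rose by 5.15 and 4.25 on the log2 scale in the 2 pairs. *Irf1*, a transcription factor gene, rose by 1.74 and 2.17, and the chemokine gene *Cxcl10* by 1.66 and 1.92. *Irf7*, which encodes a transcription factor that acts below the endosomal receptors, rose by 1.38 and 0.97. These 4 were past 1.5-fold in both pairs, out of 6 measured. *Socs1*, which encodes a feedback inhibitor of cytokine signaling, had 0.43 and 0.50. *Irf8*, a transcription factor gene of macrophages, had 0.58 and 0.64 on its probe set above background. The differences of *Tlr9*, 1.07 and 0.75, thus lay below those of 4 of the 6 genes and above those of 2 in each pair. The 3 genes whose pattern over the 4 arrays was most like that of *Tlr9*, by Euclidean distance of mean-centered log2 signals among 14380 other probe sets above background, were *Cd36* at 0.06, *Erap1* at 0.09 and *Gm21188* at 0.11. *Erap1* encodes an aminopeptidase that trims peptides for MHC class I. Over 4 arrays many probe sets can lie close to any pattern.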

How the data were processed

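RNA of 3 cultures was mixed for each array. The log2 signals, as deposited, had been made by the authors with Expression Console (version 1.4.1.46), whose RMA method covers background correction, quantile normalization and the summary of probes into probe sets. Of 41345 probe sets, the 16004 that have no gene symbol were set aside, following the methods, and 1820 with several symbols named no gene. No probe set with several symbols held a member. A genome build for the array is not given in the sources used here. The median signal of the 4 arrays lay between 6.65 and 6.68. Precision is limited by the number of arrays, and no spread between replicates can be measured.

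Differences were taken between 2 arrays, with the 1.5-fold threshold of the methods and no test. Limma 3.58.1 in R 4.3.3 fitted additive terms for IFNγ and benztropine to all named probe sets. The 1 residual degree of freedom mixes array error with any interaction of the agents, and the standard errors rest on 3.79 prior degrees of freedom. Signals of several probe sets of a list gene were averaged. The steps were tested on simulated data. The members and lists were chosen with earlier results of these data known. All 10 members were named, and of each list the genes past 1.5-fold. The alternatives were a 2-fold threshold, quantile normalization again, median centering, a loess trend removed (span 0.3), other background levels and other limma settings. Python 3.11.15 was used with pandas 2.3.3 and statsmodels 0.14.6.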

Additional observations from a re-analysis of the deposited data

Results flagged for a closer look

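For some genes an agent moved the signal one way in 1 pair of arrays and the other way in the separate pair. With IFNγ these were *Tlr6*, at 0.22 against control and −0.062 with both agents against benztropine alone, and *Tlr7*, at 0.19 and −0.017. With benztropine they were *Tlr1*, at −0.054 in the pair with control and 0.069 in the pair of both agents and IFNγ alone, *Tlr2* at 0.22 and −0.13, *Tlr7* at 0.16 and −0.051, *Tlr9* at 0.18 and −0.14, *Tlr13* at 0.28 and −0.074, and *Myd88* at 0.049 and −0.13. Opposite signs were found for 2 of the 10 genes with IFNγ and 6 with benztropine, beside 41.2% and 45.6% of the named probe sets. All of these log2 differences were within 1.5-fold, each rests on a single pair of arrays, and the difference between the pairs was not tested.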

How the results depend on the processing

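With 1 array per condition, a small difference cannot be told from array error. Of 38 alternative values of the counts of members, 34 stayed within 1.5 times the main count. Some of them had little room to move. Limiting a pair to genes above background could remove no member, since all 10 were above it on every array. A count of 0 at 1.5-fold, as in both comparisons with benztropine, had to stay 0 at 2-fold. Quantile normalization was repeated on signals that RMA had already normalized in this way. With a 2-fold threshold, 0 members passed with both agents against benztropine alone, where *Tlr9* passed 1.5-fold. Limma called *Tlr9* alone for IFNγ, whereas a variance trend gave 3 members (*Tlr3*, *Tlr4* and *Tlr9*), a fit on probe sets above background 2 (*Tlr4* and *Tlr9*), and a fit that kept probe sets without a gene symbol 0. The last fit tests more probe sets, and before adjustment its values for *Tlr9* also differed. The SE was 0.115 in place of 0.101, and the unadjusted limma p 0.00287 in place of 0.000344. The estimated effect was 0.912 in both fits, and limma takes its prior variance and prior degrees of freedom from all probe sets in a fit. With median centering, both arrays with IFNγ lay above the others for 8 members in place of 7. Of the values of single members under the alternatives, 130 moved by less and 10 by more than the standard deviation of the difference over all named probe sets. The 10 all compare the 2 pairs of arrays of an agent. In that comparison 4 of 10 values moved by more for IFNγ and 6 of 10 for benztropine. Quantile normalization again, median centering and the removed loess trend gave 40 values each, all of which moved by less. None of the differences past 1.5-fold changed sign. No paired analysis was possible because the labels hold no replicates whose numbers could pair samples across conditions. Both pairs of arrays of each agent enter the limma fit, and leaving out 1 array leaves that fit no residual degree of freedom.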

Other observations

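*Tlr1* and *Tlr6* are neighbours among the coding genes of chromosome 5, as *Tlr7* and *Tlr8* are on the X chromosome, in RefSeq. With IFNγ against control the log2 differences were 0.05 for *Tlr1* and 0.22 for *Tlr6*, and 0.19 for *Tlr7* and 0.57 for *Tlr8*. With both agents against benztropine alone they were 0.18, −0.06, −0.02 and 0.26 in the same order. *Tlr11* was below background on all 4 arrays, with 5.94 with both agents, 6.12 with IFNγ, 6.03 with benztropine and 6.003 in control. *Tlr12* was below background as well, with 6.61, 6.28, 5.90 and 5.77 in the same order, and no fold is given for it.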
